A study of Mus musculus with 8 samples.

Results

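Stroma 1 is the smaller of the 2 stromal clusters that the authors defined among nuclei of the mouse iris. The nuclei described here are those that carry the authors' label for stroma 1 in the 3 libraries from untreated irises, 1292 nuclei out of 14365 untreated nuclei and 34357 nuclei in all. Each library is a pool of 5 to 6 irises and held varying amounts of ciliary body, taken from female albino mice that were 6 to 8 weeks old and wild type by their labels. The other libraries came from the same kind of mice after hourly eye drops over 6.5 hours, 3 of them constricted with 5% pilocarpine in the light and 2 dilated with 5% phenylephrine and 1% cyclopentolate in the dark. Since the drug and the lighting always changed together, they cannot be told apart. Untreated replicates 1, 2 and 3 held 180, 520 and 592 stroma 1 nuclei. The other 9 cell types of the same 3 libraries, named as by the authors, serve for comparison. They are stroma 2, dilator muscle, sphincter 1 and sphincter 2, iris pigment epithelium (iris PE), ciliary body (CB) and its epithelium (CBE), leukocytes and endothelial cells.

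The stroma of the iris holds 2 classes of resident cells in classical histology, fibroblasts and melanocytes. Melanocytes descend from the neural crest, where the transcription factors SOX10 and PAX3 act upstream of MITF, which in turn drives the enzymes and transporters that make melanin inside melanosomes. The pigmented epithelium at the back of the iris makes melanin with largely the same machinery. Schwann cells, the glia of peripheral nerves, also arise from the neural crest and keep SOX10. In albino mice the melanosomes are formed but hold no melanin, so the transcripts below say nothing about pigment itself.

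Levels are given as CPM, the number of unique molecular identifiers (UMIs) of a gene per 1000000 UMIs summed over the stroma 1 nuclei of a library. Values after ± are SDs over the 3 untreated libraries, and a value given without a library is the mean of the 3. The summed UMIs of stroma 1 were 557516, 1365959 and 1622919 in untreated replicates 1, 2 and 3, at medians of 3113, 2624 and 2678 UMIs per nucleus. Because the clusters were made from these same counts, differences between cell types are given as sizes with their spread, and not tested.

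The 3 libraries gave similar profiles of stroma 1, with replicate 1 the most distant. Across 22828 genes, the correlation of log2(CPM + 1) was 0.976 between replicates 2 and 3, 0.947 between 1 and 2 and 0.949 between 1 and 3. These correlations are across genes, which are not independent replicates. Among the 3867 genes with a mean of at least 50 CPM, the median coefficient of variation was 11.5%, and 78 genes (2.02%) differed by more than 2-fold between the highest and the lowest library. Replicate 1 was the highest for 59 of these 78 genes. After the library suffix was removed, 63 barcodes (4.26% of the smaller library) were shared by untreated replicate 1 and dilated replicate 1, and 59 of the 63 had the same cell type in both. Only 3 of them were stroma 1 nuclei, and leaving out every nucleus with a shared barcode did not move the count of genes enriched in stroma 1, given further below, from 176.

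The 5 genes that were given as markers of this cluster were all highest in stroma 1, in each of the 3 libraries. This is a check of the label, since the markers were chosen for these cells. *Pax3* (chromosome 1 from 78101267 to 78197134, minus strand), a transcription factor of the neural crest, was at 1272, 1185 and 1190 CPM in untreated replicates 1, 2 and 3, and its next highest level, 27.7 CPM, was in endothelial cells. *Ednrb* (chromosome 14 from 103814625 to 103844402, minus strand), the endothelin receptor that melanocyte precursors need, was at 902, 851 and 929 CPM, compared to 76.7 CPM in endothelial cells. *Chsy3* (chromosome 18 from 59175401 to 59535999, plus strand), an enzyme that polymerizes chondroitin sulfate, was at 6206, 4929 and 5488 CPM, which is 29.6-fold above endothelial cells. The T-box factor *Tbx1* (chromosome 16 from 18580979 to 18590671, minus strand) was at 344, 351 and 334 CPM. It stands out least of the 5, because endothelial cells had 211 CPM, and its ratio of 1.62 is far below the ratio of 13.3 for *Sox10*, which codes for the transcription factor that names this cluster.

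Each of these markers was also spread over the nuclei of the cluster. All 1292 nuclei had a UMI of at least 1 of the 5 markers, 1240 nuclei (96.0%) had at least 3, and 402 (31.1%) had all 5. After each nucleus was thinned to 1000 UMIs, a UMI of *Sox10* remained in 58.4% of stroma 1 nuclei and 0.479% of stroma 2 nuclei, and a UMI of *Pax3* in 63.7% and 0.205%. Before thinning, these shares were 85.3% and 1.32% for *Sox10*, and 87.3% and 0.855% for *Pax3*, at median depths between 2624 and 3113 UMIs in stroma 1 and between 2381 and 2999 UMIs in stroma 2. The shares in stroma 1 lie far above those in stroma 2, and the part of free RNA in the stroma 2 shares was not tested.

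The regulators and receptors of melanocytes were for the most part highest in stroma 1. Of 14 members with UMIs, 10 had their highest level in stroma 1, compared to 2203 of 22828 genes in all (9.65%), and the median log2 ratio to the mean of the other 9 types was 3.05, against -0.37 over all genes. *Sox10*, *Pax3* and *Ednrb* are in this list as well as among the markers. *Tfap2a*, a transcription factor that works with MITF, was at 389, 523 and 538 CPM, compared to 30.2 CPM in endothelial cells, its next type. *Met*, the receptor for hepatocyte growth factor, was at 2384, 2910 and 2821 CPM, 14.6-fold above iris PE. *Erbb3*, a neuregulin receptor, was at 61.0 ± 2.45 CPM, 10.8-fold above CBE, and *Kit*, the receptor for stem cell factor, at 145 ± 12.6 CPM, 3.08-fold above iris PE. *Sox5* and *Bcl2*, which codes for the survival factor that melanocytes depend on, exceeded the next type by only 1.38-fold and 1.48-fold.

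*Mitf* itself (chromosome 6 from 97807052 to 98021349, plus strand) was highest in stroma 1 in each library but present in all other types. Over untreated replicates 1, 2 and 3, leukocytes had 795, 731 and 477 CPM and sphincter 2 had 522, 724 and 680 CPM. Stroma 2 was lowest, at 174, 163 and 154 CPM. *Mitf* was at 3519, 1365 and 1650 CPM in stroma 1, while dilator muscle had 1038 ± 43.1 CPM and iris PE 1025 ± 82.9 CPM. Replicate 1 thus had more than 2-fold the level of the other replicates, while dilator, at 1002, 1027 and 1086 CPM, and iris PE, at 931, 1087 and 1058 CPM, showed no such excess in replicate 1. The 4 regulators that did not peak in stroma 1 were *Zeb2*, *Ets1*, *Lef1* and *Tfec*. *Ets1* was at 213 ± 6.57 CPM, second to endothelial cells at 292 CPM. *Lef1*, a nuclear partner of beta-catenin, was almost absent at 3.65 ± 0.0559 CPM, compared to 987 CPM in endothelial cells. *Tfec*, a relative of *Mitf*, was at 3.42 ± 2.08 CPM in stroma 1 and 240 ± 29.2 CPM in iris PE, so that stroma 1 and iris PE shared *Mitf* but differed in *Tfec*.

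**Figure D1:**
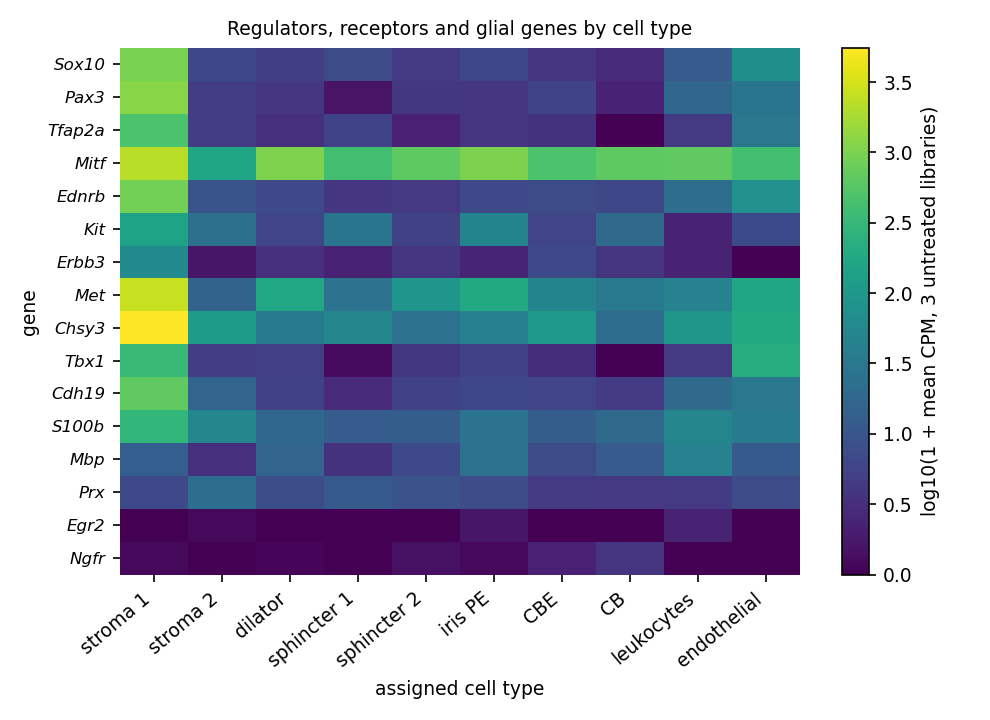
Mean level of 16 regulator, receptor and glial genes (rows) in the 10 cell types (columns), as log10(1 + CPM), averaged over the 3 untreated libraries. The first column, stroma 1, is bright for the transcription factors, the receptors and *Cdh19* and *S100b*, while *Egr2* is at 0 there, and *Mitf* is bright in several columns.

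The genes of pigment synthesis were at their highest in stroma 1, also above iris PE. Of the 10 members, 8 were highest in stroma 1 by the mean and in each of the 3 libraries (9.65% and 3.28% of all genes). The list had a median log2 ratio to the mean of the other types of 2.49. The most enriched transcripts were not the melanogenic enzymes but transporters and a receptor of the melanosome. *Slc45a2*, whose product regulates the pH of the melanosome, was at 343, 302 and 305 CPM. Iris PE had 17.6 ± 3.68 CPM and dilator muscle 32.3 ± 4.39 CPM of *Slc45a2*, and the ratio to the next type, endothelial cells, was 9.11. *Gpr143*, the receptor that is mutated in ocular albinism, was at 249, 337 and 312 CPM, 5.74-fold above dilator muscle.

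The 3 enzymes of melanin synthesis differed among themselves in how far stroma 1 exceeded iris PE. *Dct*, dopachrome tautomerase (chromosome 14 from 118012790 to 118052244, minus strand), was at 20505, 21468 and 20798 CPM in stroma 1 and 7060 ± 525 CPM in iris PE, a ratio of 2.96. *Tyrp1* was at 3221, 2304 and 2428 CPM, 2.15-fold above iris PE. *Tyr*, which codes for tyrosinase, the enzyme for the first step of the pathway, was at 2567, 2398 and 2466 CPM in stroma 1, only 1.26-fold above the 1959 ± 132 CPM of iris PE, though each of the 3 values exceeded that mean by more than its SD. *Oca2* (3.09-fold above iris PE) and *Slc24a5* (2.13-fold above dilator muscle), which code for ion transporters of the melanosome, and *Atp7a*, which codes for the copper pump that supplies tyrosinase (1.45-fold above leukocytes), followed the same direction. The remaining 2 members, *Tpcn2* and *Mfsd12*, were at 13.7 and 10.3 CPM in stroma 1 and were higher in other types. *Dct* was also detected in types without a known role in pigment, and the part of free RNA in this was not tested. After thinning, a UMI of *Dct* was found in 28.6% of stroma 2 nuclei and 37.1% of leukocytes, compared to 100% of stroma 1 and 98.9% of iris PE nuclei. Without thinning, 55.3% of stroma 2 nuclei had a UMI of *Dct*.

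**Figure D2:**
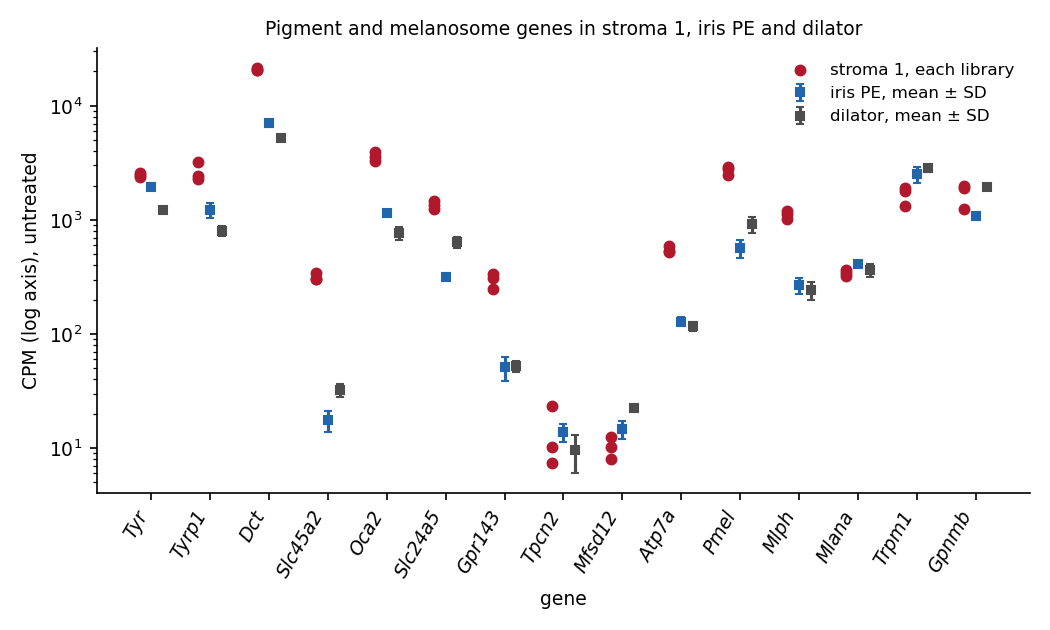
Levels (CPM, log axis) of the 10 pigment synthesis genes and 5 melanosome genes in stroma 1 (red points, 1 for each untreated library), iris PE (blue squares) and dilator muscle (gray squares), the squares with the SD over 3 libraries. The red points lie above both squares for 8 of the 10 pigment genes, with the widest gap for *Slc45a2*, and below them for *Trpm1*.

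Several of these genes share a short element just upstream of their transcription start. The M-box is a site for MITF in promoters of melanogenic enzymes, and its core TCATGTG was searched on both strands (the reverse complement is CACATGA) in the RefSeq promoters of the build GRCm38.p6, which run from 250 bases before to 50 bases after the start. At least 1 copy lay in 1239 of 32851 promoters (3.77%). Promoters were found for 8 of the 10 pigment synthesis genes, and 4 of the 8 held the core. These were *Dct*, *Tyr*, *Tyrp1* and *Slc24a5*. The match began 232 and 151 bases before the start in *Dct*, 22 in *Tyr*, 47 in *Tyrp1* and 13 in *Slc24a5*. The core was present too in the promoters of *Trpm1* and *Slc7a11*, which were not highest in stroma 1. By promoters, the core lay in 4 of 8 (50.0%) for the pigment synthesis genes, 3 of 24 (12.5%) for the melanosome genes (*Hps1*, *Slc7a11* and *Trpm1*) and 1 of 21 (4.76%) for the regulators and receptors. The letters CACGTG, a related E-box that does not overlap the core and reads the same on both strands, lay in 7.15% of all promoters, and in 1 of 8 (12.5%), 8 of 24 (33.3%) and 2 of 21 (9.52%) of these sets. A match of letters is not evidence of binding. The 250 bases before the start are shown for the 4 pigment genes, 5′ to 3′ on the strand of the gene, with the core or its reverse complement in capitals. The windows are chr14:118052247-118052496 (*Dct*, minus strand), chr7:87493513-87493762 (*Tyr*, minus strand), chr4:80833963-80834212 (*Tyrp1*, plus strand) and chr2:125067877-125068126 (*Slc24a5*, plus strand).
Dct: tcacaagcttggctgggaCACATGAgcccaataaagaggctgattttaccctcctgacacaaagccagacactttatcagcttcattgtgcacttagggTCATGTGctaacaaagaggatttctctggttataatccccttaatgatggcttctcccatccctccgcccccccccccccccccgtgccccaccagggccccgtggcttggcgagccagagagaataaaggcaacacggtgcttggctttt
Tyr: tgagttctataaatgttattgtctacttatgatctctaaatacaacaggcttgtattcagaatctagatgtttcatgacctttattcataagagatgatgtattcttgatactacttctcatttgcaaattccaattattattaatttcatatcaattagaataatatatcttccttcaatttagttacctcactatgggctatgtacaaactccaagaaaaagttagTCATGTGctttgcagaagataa
Tyrp1: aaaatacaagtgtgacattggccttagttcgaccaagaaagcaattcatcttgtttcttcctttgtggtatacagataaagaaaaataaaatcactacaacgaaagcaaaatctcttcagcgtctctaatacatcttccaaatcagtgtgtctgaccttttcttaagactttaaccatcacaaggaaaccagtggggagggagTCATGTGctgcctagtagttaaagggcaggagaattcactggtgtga
Slc24a5: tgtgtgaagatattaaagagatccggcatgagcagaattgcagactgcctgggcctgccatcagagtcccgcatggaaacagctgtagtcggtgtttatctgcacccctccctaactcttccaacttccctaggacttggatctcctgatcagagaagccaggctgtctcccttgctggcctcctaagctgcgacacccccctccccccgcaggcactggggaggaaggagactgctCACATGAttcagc

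Genes for the structure and transport of melanosomes were more evenly shared among the pigment cells. Of 23 members with UMIs, 13 were highest in stroma 1 by the mean (9.65% of all genes) and 8 in each of the 3 libraries (3.28% of all genes), and the median log2 ratio to the mean of the other types was 1.27. *Pmel*, which forms the fibrils on which melanin is laid down, was at 2456, 2773 and 2939 CPM, 2.98-fold above dilator muscle. The 3 genes for the complex that carries melanosomes along actin, *Rab27a*, *Mlph* and *Myo5a*, all peaked in stroma 1. *Mlph*, the linker of the complex, was 4.17-fold above iris PE, *Myo5a*, the motor, 1.86-fold above leukocytes, and *Rab27a*, the anchor on the melanosome, 1.34-fold above dilator muscle. *Mreg*, which codes for melanoregulin, was among the most enriched of the list, at 122, 218 and 201 CPM and 12.4-fold above sphincter 1. For *Hps3*, *Hps4*, *Hps5* and *Dtnbp1*, subunits of complexes that build the melanosome, the ratio to the next type lay between 1.01 and 1.15, so that stroma 1 hardly differed from that type. *Trpm1* (1674 ± 309 CPM, against 2825 ± 207 CPM in dilator muscle), *Gpnmb* and *Mlana* were higher in dilator muscle or iris PE. *Slc7a11*, which imports cystine and thereby favors the red-yellow form of melanin, had its lowest mean in stroma 1, at 9.39 ± 5.85 CPM, compared to 166 ± 75.7 CPM in iris PE.

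Genes that Schwann cells and melanocytes share were high in stroma 1, whereas genes of myelination were low or near 0. Of 19 glial genes with UMIs, 7 peaked in stroma 1 by the mean (9.65% of all genes) and 4 in each of the 3 libraries (3.28% of all genes), with a median log2 ratio of -0.17 over the list, though *Fabp7* and *Pou3f1* rested on 5 UMIs and 1 UMI. *Cdh19*, a cadherin of the glial and melanocyte lineage, was at 648, 668 and 738 CPM, 23.1-fold above endothelial cells. *S100b*, which codes for a calcium-binding protein, was at 260, 339 and 299 CPM, 5.57-fold above stroma 2, its next type. *Foxd3*, a neural crest factor, and *Gjc3*, a connexin gene, were low, at 10.6 ± 2.30 and 27.1 ± 13.9 CPM, but still lower elsewhere. In contrast, *Egr2*, the factor that switches on myelin genes, had 0 UMIs among 3546394 UMIs of stroma 1. *Ngfr*, the nerve growth factor receptor of immature Schwann cells, had 1 UMI. *Mbp* was at 12.1 ± 4.99 CPM, below its levels in leukocytes and iris PE. Of 7 genes for myelination and early Schwann cells (*Prx*, *Egr2*, *Ngfr*, *Pou3f1*, *Mbp*, *Ncmap* and *Drp2*), chosen from the list after their levels had been seen, no nucleus had UMIs of 3 or more, and 2 of 1292 nuclei (0.155%, 95% Wilson interval 0.0425% to 0.563%) had UMIs of 2. No group of nuclei with a myelinating profile was thus found within stroma 1 at this depth. These intervals cover counting error only.

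Transcripts of melanin synthesis were detected together far more often in stroma 1 nuclei than in stroma 2 nuclei. A UMI of *Dct* was present in 1292 of 1292 nuclei, and 1156 (89.5%) had UMIs of all 4 of *Dct*, *Tyr*, *Tyrp1* and *Pmel*, compared to 56.9% of iris PE, 64.3% of dilator muscle and 0.461% of stroma 2 nuclei. After thinning to 1000 UMIs, all 4 were found in 63.0% of stroma 1, 19.7% of iris PE, 18.6% of dilator muscle and 0.0342% of stroma 2 nuclei. The number of pigment synthesis genes with a UMI had a median of 7 out of 10 and ranged from 2 to 9, with a median of 2 in stroma 2. After thinning, these medians were 5 and 1, at median depths before thinning of 2703.5 and 2458 UMIs. In *Dct* counts per 10000 UMIs, the 10th percentile of nuclei was at 131, the median at 207 and the 90th percentile at 313, with library medians of 206, 209 and 204 in replicates 1, 2 and 3. *Mitf* had a wider relative spread, with a 10th percentile of 3.44, a median of 13.1 and a 90th percentile of 37.8 per 10000. It rested on a median of 3 UMIs per nucleus, compared to 55 for *Dct*, and the part of counting error in its spread was not tested. The library medians of *Mitf* were 30.5, 10.5 and 13.4, and its 10th percentiles 8.37, 1.79 and 3.66, so that replicate 1 was high in its lowest nuclei as well. Scrublet called 2 doublets among the 1292 nuclei.

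Markers of the other cell types were low in stroma 1. For each of the other 9 types, a list of 6 markers was summed, and in none of the lists did a member peak in stroma 1. The summed levels lay between 19.6 ± 5.68 CPM for the endothelial list and 137 ± 22.8 CPM for the sphincter 2 list. *Ptprc*, which marks leukocytes, was at 0.616 ± 1.07 CPM in stroma 1. Proliferation genes were also near 0, with 2 UMIs of *Mki67*, and 1 nucleus (0.0774%) had UMIs of 2 or more of 10 such genes.

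Stroma 1 also differed from stroma 2 in the level of the fibroblast genes. None of 12 fibroblast genes was highest in stroma 1 (9.65% of all genes), and their median log2 ratio to the mean of the other types was -2.93. Their summed level was 113 ± 19.5 CPM in stroma 1 and 4629 ± 331 CPM in stroma 2. *Pdgfra*, a growth factor receptor of fibroblasts, was at 9.67 ± 2.99 CPM in stroma 1 and 906 ± 262 CPM in stroma 2. *Col1a2*, which codes for a chain of type I collagen, was at 6.57 ± 1.92 and 317 ± 33.7 CPM. Of 14 transcription factors of the neural crest and periocular mesenchyme, 3 peaked in stroma 1 by the mean and 2 in each of the 3 libraries (9.65% and 3.28% of all genes), a larger share than over all genes. The 3 were *Tbx1*, which is also a given marker, *Foxd3*, and *Sox9* at 37.0 ± 14.7 CPM, while the median log2 ratio was -2.26. *Sox10*, *Pax3* and *Tfap2a*, which are neural crest factors too, were counted with the melanocyte regulators and are not in this median. *Foxc1*, which the anterior segment of the eye needs to develop, was at 4.62 ± 1.70 CPM in stroma 1, compared to 120 CPM in stroma 2, and *Lmx1b* was at 22.6 ± 5.01 compared to 756 CPM. *Twist1*, *Sox8* and *Tfap2c* had 0 UMIs.

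By the rule that took the 5 genes with the largest ratio in each direction, *Gm10067*, *1700109G14Rik*, *Pax3*, *Gm4593* and *Mcoln3* were highest in stroma 1 relative to stroma 2, and *Fst*, *Gm15866*, *Prl2c3*, *Tmem132cos* and *Mup2* the reverse. *Fst*, which codes for follistatin, an inhibitor of activin, was at 50.6 ± 18.7 CPM in stroma 2 and had 0 UMIs in stroma 1. Set against 3 counts over all untreated stroma 1 nuclei (0.846 CPM), it was at least 59.8-fold lower in stroma 1. *Gm15866* was at least 81.8-fold lower and *Prl2c3*, a member of a family of near-identical genes whose counts are uncertain, at least 80.4-fold lower. *Tmem132cos* and *Mup2*, at 277 ± 107 and 162 ± 73.0 CPM in stroma 2, had 2 UMIs each in stroma 1, and *Mup2* also belongs to a family of near-identical genes.

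**Figure D3:**
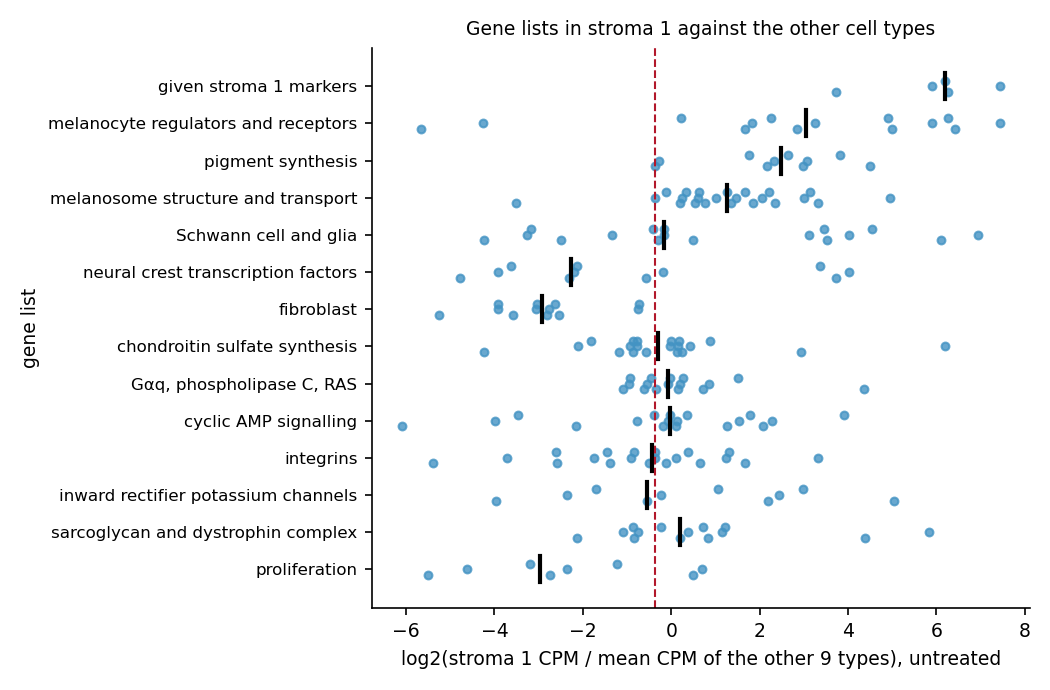
Each point is 1 gene of a list (rows), placed by the log2 ratio of its stroma 1 CPM to the mean CPM of the other 9 types over the 3 untreated libraries. Black bars are list medians, in which genes with 0 UMIs in stroma 1 rank lowest (they have no point), and the dashed red line is the median of all genes, -0.37. The marker, melanocyte and pigment lists lie to the right of the line and the fibroblast, neural crest and proliferation lists to the left, while several lists hold single genes far to the right.

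The other genes of the pathway of *Chsy3* did not share its pattern. Of 20 genes for the synthesis of chondroitin and dermatan sulfate, it was the only one with its highest level in stroma 1, a share below the 9.65% of all genes, and the list had a median log2 ratio of -0.30. Its paralog *Chsy1* was at 13.4 ± 8.62 CPM, the lowest mean of the 10 types. *Dse*, an epimerase that converts chondroitin into dermatan sulfate, was at 5.38, 11.0 and 23.4 CPM, compared to 91.1 CPM in endothelial cells, the next lowest type, and 582 CPM in leukocytes. Stroma 1 thus had the highest level of *Chsy3* and the lowest level of *Dse*.

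Single genes of other membrane and matrix-binding complexes were also high. In the sarcoglycan and dystrophin complex, which ties the cytoskeleton to the matrix in muscle, 5 of 15 members peaked in stroma 1 by the mean and in each library (9.65% and 3.28% of all genes), with a median log2 ratio of 0.19. *Sgcd* was at 2857, 2528 and 2841 CPM, 5.92-fold above sphincter 1. *Sgcb* exceeded the next type by 1.54-fold and *Dag1* by 1.23-fold. *Sgca*, the sarcoglycan of striated muscle, had 0 UMIs. *Dmd* itself was at 80.6 ± 21.4 CPM, ninth of the 10 types. Of 20 integrin genes, 2 peaked in stroma 1, a share near the 9.65% of all genes. *Itga9* was at 938, 1226 and 1098 CPM, compared to 351 CPM in leukocytes, its next type, and *Itgav* was at 292 ± 10.9 CPM, 1.69-fold above stroma 2.

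The signaling lists held a few high genes, with medians near 0. In the pathway from G alpha q through phospholipase C to RAS, which is activated by mutation in melanocytic tumors of the human uvea, 3 of 17 members peaked in stroma 1 by the mean and 2 in each of the 3 libraries, against 9.65% and 3.28% of all genes, and the median log2 ratio was -0.07. *Rasgrp3*, an exchange factor for RAS, was at 802, 1143 and 1125 CPM, 4.71-fold above leukocytes, while dilator muscle had 4.23 ± 2.18 CPM and iris PE 8.68 ± 1.75 CPM. *Prkce*, a protein kinase C, was 1.61-fold above endothelial cells. *Gnaq* (386 ± 20.8 CPM), *Gna11* (20.3 ± 9.90 CPM) and *Plcb4* (681 ± 62.8 CPM) were higher in other types, and *Cysltr2*, a receptor of this pathway, had 0 UMIs. Of 19 genes of cyclic AMP signaling, 5 peaked in stroma 1 by the mean and 3 in each library (9.65% and 3.28% of all genes), with a median log2 ratio of -0.02. *Rapgef4*, which codes for the cyclic AMP-activated exchange factor EPAC2, was at 2299, 2540 and 2608 CPM, 3.07-fold above endothelial cells, and the related *Rapgef3* was at 250 ± 36.1 CPM, 1.75-fold above CBE. The adenylate cyclase *Adcy2* was at 433 ± 21.9 CPM, 1.67-fold above dilator muscle. The level of the receptor for melanocyte-stimulating hormone, a classical input to this pathway, was not analysed here. Its gene, *Mc1r*, was covered only by the promoter search above.

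Across all genes, 176 of the 3867 with at least 50 CPM in stroma 1 (4.55%) were at least 2-fold above every other type in each of the 3 libraries. They comprised 147 protein-coding genes, 19 antisense transcripts and 10 lincRNAs. The next highest type was endothelial for 56 of them (31.8%), leukocytes for 22 and dilator muscle for 20. Endothelial cells and leukocytes had only 149 and 193 untreated nuclei, and without these types among the others the count rose to 269. Just inside the limit were *A930028N01Rik* and *4931406C07Rik*, with a lowest fold over the libraries of 2.01 and 2.02, and just outside were *Bace2* and *Cited2*, both at 1.99. The median gene length was 49.8 kb, compared to 59.9 kb for the genes with at least 50 CPM.

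The 20 genes with the largest ratio to the next type were led by transcripts with almost no UMIs elsewhere. For 8 of them the next type had 3 UMIs or fewer, so no ratio is given for these, and for those described here the level in stroma 2, a type with many nuclei, is given in its place. *Gm829*, a lincRNA gene (chromosome 4 from 45683589 to 45723338), was at 50.2, 65.9 and 63.5 CPM, with 0.492 ± 0.44 CPM in stroma 2. *Igsf11*, which codes for a cell adhesion protein, was at 96.9, 102 and 87.5 CPM, with 0.602 ± 0.526 CPM in stroma 2. *Mcoln3*, a channel gene of endosomes and lysosomes whose dominant mutation alters coat color, was at 154, 225 and 198 CPM, with 0.670 ± 0.904 CPM in stroma 2. *Scn8a*, which codes for a voltage-gated sodium channel of axons, was at 579, 673 and 721 CPM, 36.6-fold above endothelial cells, and *Gldn*, which codes for gliomedin, a protein of the node of Ranvier, was at 92.4 ± 13.4 CPM, with 1.18 ± 1.21 CPM in stroma 2. *Dclk1*, a microtubule-associated kinase gene, was at 1207, 1217 and 1429 CPM, 25.4-fold above CBE, and *Insc*, which codes for an adaptor of spindle orientation, at 434 ± 28.0 CPM. *Slc24a4*, a sodium-calcium exchanger gene, was at 135, 74.7 and 75.8 CPM, with 0.894 ± 0.294 CPM in stroma 2. Noncoding or uncharacterized transcripts made up a large part of the 20, among them *1700109G14Rik*, *Gm12068* and *Gm10067*. *Gsta1* belongs to a family of near-identical genes, so its counts are uncertain. *Pax3*, *Chsy3* and *Cdh19* are in this group and were described above.

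**Figure D4:**
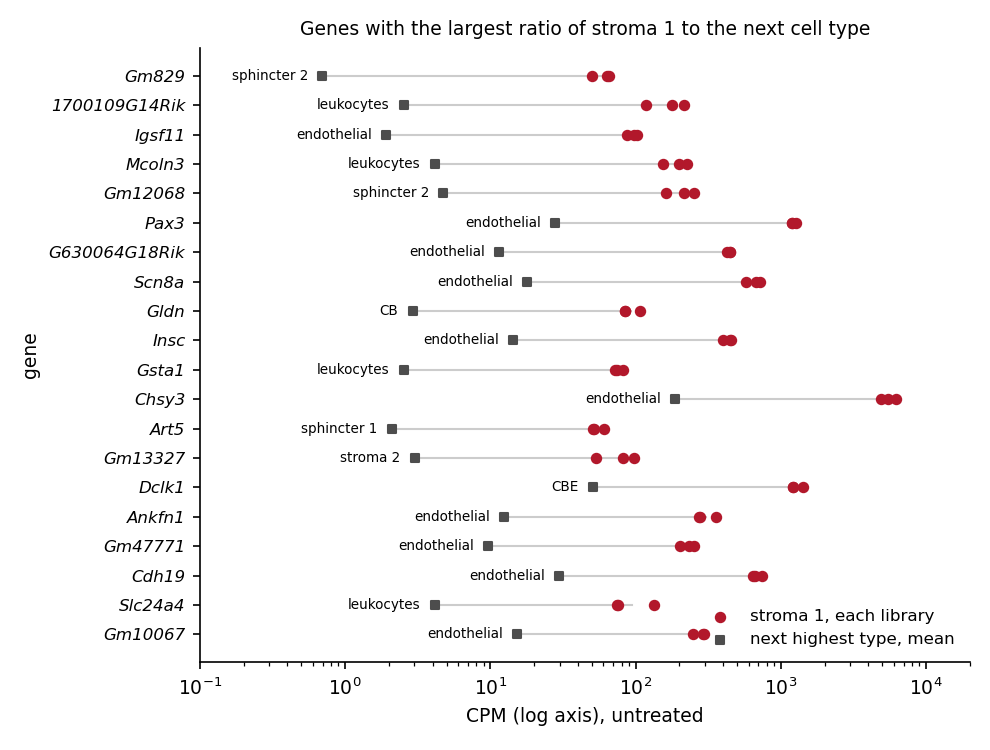
The 20 genes with the largest ratio of stroma 1 to the next highest cell type. Red points are the CPM (log axis) of stroma 1 in each untreated library, and the gray square is the mean of the next type, which is named beside it. In every row the 3 red points lie to the right of the square, at the least 18.1-fold by the means (*Gm10067*), and for 8 genes the square rests on 3 UMIs or fewer.

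Of 13 inward rectifier potassium channel genes with UMIs, *Kcnj13* was the only one with an appreciable level in stroma 1. It was at 952, 1447 and 1545 CPM, compared to 110 CPM in CBE, its next type, while the other 12 were at 10.2 CPM or less. *Kcnj13* (chromosome 1 from 87386363 to 87394729, minus strand) codes for Kir7.1, the channel of the retinal pigment epithelium and choroid plexus. Iris PE had 57.0 ± 10.8 CPM.

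Of 2093 genes with at least 50 CPM in each of the other 9 types, 297 had their lowest mean in stroma 1, and the 5 with the lowest ratio to the next lowest type are named here. *Dach1*, a transcription factor gene, was at 30.5, 35.9 and 31.4 CPM, compared to 274 CPM in leukocytes, the next lowest type (a log2 ratio of -3.07), and 1632 ± 59.1 CPM in stroma 2. *Dse* was next, and *Slc24a3*, an exchanger gene related to the enriched *Slc24a4*, was at 18.2 ± 5.67 CPM in stroma 1, against 1299 ± 104 CPM in stroma 2. *Prkcb*, a protein kinase C gene, was at 14.8 ± 2.56 CPM, while the related *Prkce* was highest in stroma 1. *Dapk1*, a kinase gene linked to cell death, was at 36.8 ± 13.3 CPM.

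As whole profiles, stroma 1 correlated more with dilator muscle and iris PE than with stroma 2. The correlation of log2(CPM + 1) across genes, averaged over the 3 libraries, was 0.880 with dilator muscle, 0.877 with iris PE and 0.859 with stroma 2, and 0.738 with leukocytes, the most distant. Within libraries, the value for dilator muscle was 0.864, 0.886 and 0.890. Endothelial cells and leukocytes, the types with the fewest nuclei, had the lowest correlations. Dilator muscle and iris PE, the types with the most nuclei, had the highest. The part of sparse sums in this order was not tested. Over genes at 50 CPM or more in stroma 1 or dilator muscle only, the correlation was 0.232. Dilator muscle had the highest value at this setting too, but each type was compared over its own set of genes.

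The share of stroma 1 among the nuclei was higher in the untreated libraries than in the treated ones. It was 12.2%, 8.14% and 9.12% in untreated replicates 1, 2 and 3. The constricted libraries had 5.41%, 7.77% and 6.07%, and the dilated libraries 3.44% and 6.29%. Neither group overlapped with the untreated libraries. The mean was 9.81% ± 2.10 (SD, n = 3) untreated, 6.42% ± 1.22 (SD, n = 3) constricted and 4.86% ± 2.01 (SD, n = 2) dilated. An exact two-sided permutation test gave p = 0.1 for constricted against untreated and p = 0.2 for dilated against untreated, which are the smallest values these designs allow, so that neither can reach 0.05. CB and CBE took 2.86% to 14.9% of the nuclei of a library. With those left out of the total, untreated replicate 2 (8.57%) fell below constricted replicate 2 (8.88%), so that untreated and constricted libraries overlapped, while the dilated libraries, at 4.05% and 6.68%, stayed below all untreated ones.

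**Figure D5:**
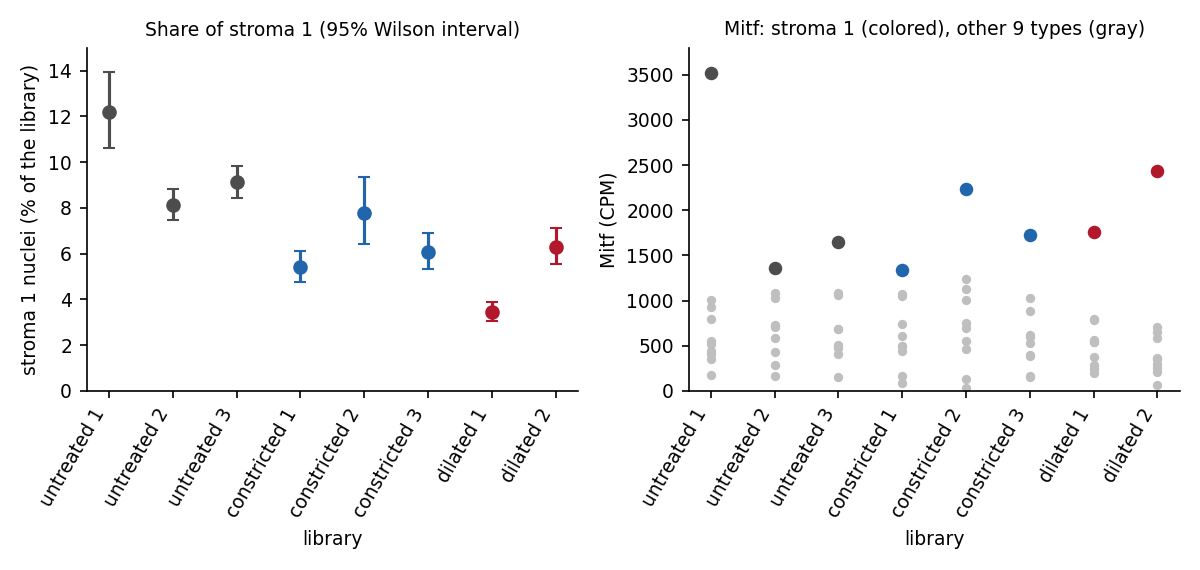
Left, stroma 1 nuclei as a percent of all nuclei in each of the 8 libraries, with 95% Wilson intervals, in gray (untreated), blue (constricted) and red (dilated). The untreated points, from 8.14% to 12.2%, lie above the other 5. Right, *Mitf* (CPM) in stroma 1 (colored) and in each of the other 9 types (light gray). Untreated replicate 1 reaches 3519 CPM in stroma 1 only.

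Few genes of stroma 1 were called in the treated irises, and none of its markers. The differences were tested on 8911 genes with the quasi-likelihood method of edgeR, and calls required both a Benjamini-Hochberg adjusted p under 0.05 over these genes and a change of more than 0.6 on the log2 scale. None of the 5 markers, of the 12 melanocyte regulators tested or of the 19 melanosome genes tested was called in either contrast. After dilation, 104 genes (1.17%) were called, 70 higher (0.786%) and 34 lower (0.382%). Of 9 pigment synthesis genes tested, *Slc45a2* alone was called. It rose from 343, 302 and 305 CPM in the untreated libraries to 529 and 559 CPM in the dilated ones, with a log2 fold change of 0.80 ± 0.17 (SE; edgeR, adjusted p = 0.0256). Of 7 integrin genes tested, *Itga4* rose to 160 and 110 CPM from 86.1, 41.7 and 37.6 CPM, by 1.44 ± 0.26 (SE; edgeR, adjusted p = 0.00925) on the log2 scale.

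By the rule for named genes, those called with dilation were *Tnfrsf12a*, *Ntrk3*, *Lgals3*, *Mettl1* and *Gm14005*. *Ntrk3*, which codes for the receptor of neurotrophin 3, was at 10.8, 19.0 and 12.3 CPM in the untreated libraries and 179 and 120 CPM in the dilated ones, a log2 fold change of 3.35 ± 0.32 (SE; edgeR, adjusted p = 2.19e-05). *Lgals3*, which codes for galectin 3, rose to 39.0 and 45.0 CPM from 5.38, 2.93 and 6.16 CPM (edgeR, adjusted p = 0.00213). *Mettl1*, which codes for a methyltransferase of transfer RNA, was at 10.8, 10.2 and 6.78 CPM before and 50.1 and 58.4 CPM after dilation, and the noncoding *Gm14005* at 17.9, 11.0 and 12.9 CPM before and 72.4 and 55.0 CPM after. *Tnfrsf12a*, a cytokine receptor gene, was at 18.1 and 36.7 CPM after dilation, with 3 UMIs in the 3 untreated libraries together. The number of called genes depended on single libraries. It was 29 without untreated replicate 2, 18 without untreated replicate 3, 46 without dilated replicate 1 and 24 without dilated replicate 2, where a single dilated library remains and its spread is assumed to be that of the other groups. With the 3 series of consecutive library numbers as a term of the fit, 390 genes were called, which included all 104. After constriction, no gene (0%) was called by edgeR or by DESeq2, and 444 genes (edgeR) and 207 genes (DESeq2) had an unadjusted p under 0.05. With the series as a term, 6 genes were called.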

How the data were processed

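Nuclei of mouse irises were profiled by droplet single-nucleus RNA sequencing in 8 libraries, 3 untreated, 3 constricted and 2 dilated. The authors aligned the reads to the mm10 genome with Cell Ranger 3.1.0, counting introns and exons, filtered the nuclei by transcripts and by the percent of mitochondrial UMIs, clustered all libraries together in Seurat and deposited raw UMI counts with a cell type for each nucleus. The counts of all nuclei with the same label in a library were added up here and scaled to CPM by their total. Treated and untreated stroma 1 were compared with edgeR 4.0.16 (quasi-likelihood, TMM scaling, low genes filtered, all 8 libraries in the fit) in R 4.3.3, which was tested on simulated data. Doublets were called with Scrublet in scanpy 1.11.5 and were kept. Thinning drew 1000 UMIs per nucleus, which left 1280 of 1292 stroma 1 and 2921 of 3040 stroma 2 nuclei. Positions are from GENCODE on mm10 (GRCm38), where introns make up most of a gene's span, so that levels are compared for each gene between cell types and not between genes. Named were the 5 markers, members of lists, the 20 genes with the largest ratio to the next type, the 5 lowest against all other types, the 5 most different from stroma 2 in each direction, and the 5 called genes with the largest change. The members and lists were chosen with earlier results of these data known. Each library is a pool of irises, and the study used 5 batches whose assignment to libraries is not given in the sources used here, so that p-values measure the spread between these libraries. Alternatives were other scaling and filters, DESeq2 1.42.0, blocks by replicate number or library series, and leaving out doublets, shared barcodes or single libraries. The levels of list genes without a row in the tables were not analysed here. *Mc1r* is among them, but its promoter was searched. Some list members are not reported here by name.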

Additional observations from a re-analysis of the deposited data

How the results depend on the processing

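Of the alternatives, 62 gave counts within 1.5 times the reported one or values within the spread of the libraries. The count of genes enriched in stroma 1 (176) was 283 without a minimum CPM, 269 without leukocytes and endothelial cells among the other types and 79 at a 4-fold threshold, and between 184 and 217 when an untreated library was left out. TMM scaling moved the median log2 ratio of genes with at least 50 CPM by 0.14, and *Ap3d1* and *Pmp22* then changed sides. The correlation with dilator muscle was 0.854 with a pseudocount of 10 and 0.232 over the higher genes, and between 0.874 and 0.887 without single libraries. Leaving out single untreated libraries gave 10 to 11 regulators, 8 pigment genes, 12 to 13 melanosome genes and 6 to 8 glial genes highest in stroma 1, and a mean share of nuclei between 8.63% and 10.6%. For constriction, 11 genes were called without a filter and 6 with the library series as a block, and 0 without any single library. For dilation, 246 were called without a filter, 390 with the library series as a block and 73 by DESeq2 (66 of them shared), and between 18 and 130 without single libraries. The cause of these differences was not tested.

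The replicate numbers were not taken to pair the libraries, since they are not stated to do so. Correlations of the deviations from group means cannot decide this. Deviations within a group are tied to one another, and those of the 2 dilated libraries are mirror images. The correlation was -0.0123 and -0.00806 for constricted replicate 2 with dilated and untreated replicate 2, and between 0.105 and 0.241 for the other 5 pairs. All 8 pairs from the same library series had a correlation between 0.105 and 0.242. With the replicate number as a block, 146 genes were called for dilation, 85 of them shared with the fit without the block, and 0 for constriction. The study's batches could not be entered in a fit, and with 2 dilated libraries the spread rests mostly on the other groups. Alternatives without shared barcodes were chosen after seeing the data.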

Other observations

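Untreated replicate 1 stood apart from the other untreated libraries in 2 ways, by genes chosen after their values were seen. *Dgkb*, which codes for a diacylglycerol kinase, was at 357, 29.3 and 42.5 CPM in stroma 1 of untreated replicates 1, 2 and 3. The same library was high in other types, with 343, 32.4 and 45.7 CPM in iris PE and 341, 27.6 and 36.5 CPM in dilator muscle. *Nkain2*, which codes for a partner of the sodium pump, was at 970, 122 and 153 CPM in stroma 1 and 1295, 388 and 483 CPM in iris PE. *Mitf*, at 3519, 1365 and 1650 CPM in stroma 1, was not high in replicate 1 in iris PE or dilator muscle. In stroma 1 of the treated irises, *Mitf* was at 1334, 2236 and 1727 CPM in the constricted libraries and 1764 and 2434 CPM in the dilated ones, below untreated replicate 1 and, for 4 of the 5, above untreated replicate 3.

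Markers of stroma 2 were rare within stroma 1 nuclei. Of 1292 nuclei, 44 (3.41%) had UMIs of at least 2 of 6 stroma 2 markers and 5 (0.387%) of at least 3. The summed level of the 6 markers in stroma 1 was 156, 105 and 112 CPM in untreated replicates 1, 2 and 3.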
